A study of Mus musculus with 8 samples.

Results

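Cytosolic sulfotransferases (Sult enzymes) move a sulfonate group from the donor PAPS (3'-phosphoadenosine 5'-phosphosulfate) to steroids, bile acids, phenols, amines and drugs, which makes them more soluble and usually ends their activity. The genes fall into families by substrate: Sult2a enzymes act on hydroxysteroids and bile acids, Sult1 enzymes on phenols, catecholamines, thyroid hormones and estrogens, and Sult3a enzymes on amines. The liver is a main site of their expression, and in adult mice several of them, among them Sult2a1, Sult2a2 and Sult3a1, are known to be more highly expressed in the liver of females than of males. PAPS itself is made from sulfate by the synthases Papss1 and Papss2, and sulfatases remove sulfate groups again.

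By the labels and the study's methods, the RNA came from the GFP-negative stromal vascular fraction sorted out of subcutaneous MC38 tumors, which were grown from a mouse colon cancer line carrying GFP. The tumors are labelled as those of Bmal1+/+ mice and Bmal1-/- mice, with 4 libraries of each, the latter mice described as having a whole-body deletion of the clock gene Bmal1. Both genotypes were bred from Bmal1+/- parents. The labels number the replicates, and each replicate is taken below as 1 mouse, since pooling of mice is not mentioned. They give neither age nor sex. A total of 10 Sult genes, Sult2a1, Sult2a2, Sult2a3, Sult2a8, Sult3a1, Sult1a1, Sult1b1, Sult1d1, Sult1e1 and Sult5a1, were taken by symbol from a count table of 55487 genes that holds 27 Sult genes and pseudogenes. These 10 were chosen by their counts and fold changes between the groups in these same libraries. Their differences between groups are therefore a description, for which no p-value is given and from which nothing is supported. Tests are given for other genes, but the lists holding these were also chosen with earlier results of these data known. In some lists the genes named were those of largest change among called genes.

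The libraries held between 14054825 and 18449143 counts. Bmal1 (Arntl in the table), the targeted gene, stood at 0.959 to 2.70 CPM (a read count scaled to the size of its library, with TMM factors) in the Bmal1+/+ libraries and at 30.1 to 34.9 CPM in the others, which goes against the labels of both groups. The second group is therefore called the libraries labelled Bmal1-/-, and Bmal1+/+ is likewise used below as a label only. Counts per gene do not show which exons of Bmal1 were read, and the genotype of neither group was settled here. Xist, the RNA of the inactive X chromosome, stood at 842 to 1093 CPM in Bmal1+/+ libraries and at 0.142 to 0.748 CPM in libraries labelled Bmal1-/-, and the 4 Y-linked genes looked at had the opposite pattern. Sex and genotype label cannot be told apart in any comparison below. The sample label was checked against cell type markers. The 8 hepatocyte markers summed to 102600 to 112300 CPM in Bmal1+/+ and 60400 to 70490 CPM in libraries labelled Bmal1-/-, while 6 fibroblast markers summed to 131 to 211 and 99.6 to 104 CPM, and the intestinal epithelial marker Cdx2 was at 0 in all 8 libraries. Genes were called at an adjusted p below 0.05 by edgeR, as were 31.1% of all genes tested, 16.2% lower and 14.9% higher. Macrophage sums were 293 to 367 CPM in Bmal1+/+ against 138 to 252 CPM in the others, with 4 of 4 genes called lower. Endothelial sums were 119 to 144 against 68.7 to 98.9 CPM, with 3 of 4 called lower. Leukocyte sums were 21.2 to 26.6 against 5.04 to 15.03 CPM, with 1 of 3 called lower. The groups overlapped for smooth muscle cells and pericytes (27.2 to 48.5 against 19.8 to 31.6 CPM), where 0 of 3 were called. They also overlapped for epithelial cells (185 to 229 against 209 to 354 CPM), with 2 of 4 tested called lower, Epcam and Krt19. In libraries labelled Bmal1-/- Epcam stood at 0.135 to 0.997 CPM and Krt19 at 0.406 to 0.622 CPM. Both passed the filter on low counts through the Bmal1+/+ libraries alone, so nothing is drawn from their calls. The Bmal1+/+ mean of Krt19 was carried by replicate 2, at 5.69 CPM. Genes not called on the endothelial, leukocyte and smooth muscle lists also had lower means in libraries labelled Bmal1-/-. Of the 6 fibroblast markers 4 were lower, and of the hepatocyte list 1 gene was called lower and 2 higher, with albumin (Alb) at 64200 to 71741 and 12721 to 18795 CPM. The hepatocyte sums lay far above those of every stromal list in all 8 libraries, which goes against the labelled cell type. The part of the sexes, of hepatocyte RNA and of other cells in the results was not tested, and in such bulk RNA fewer cells of a type and less RNA per cell cannot be told apart.

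Several of the Sult2a genes are so alike that reads can fit more than 1 of them, which bears on every count given for them. They lie in a cluster on chromosome 7 of the mouse genome (GRCm38): Sult2a2 at chr7:13733505-13779636 on the plus strand, Sult2a1 at chr7:13796246-13837409, Sult2a3 at chr7:14067446-14123044 and Sult2a8 at chr7:14410686-14446769, the last 3 on the minus strand. The first 90 coding bases of each are shown with those of their neighbours Sult2a5 and Sult2a6, because they show how far the genes have parted. Each stretch lies within 1 coding exon, is read 5′ to 3′ from GRCm38, and capitals mark the bases that differ from Sult2a1.

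Sult2a1, chr7:13837267-13837356, minus strand: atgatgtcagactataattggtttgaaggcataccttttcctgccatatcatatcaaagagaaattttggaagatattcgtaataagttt

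Sult2a2, chr7:13733559-13733648, plus strand: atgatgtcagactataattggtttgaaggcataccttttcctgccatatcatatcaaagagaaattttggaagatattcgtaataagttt

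Sult2a5, chr7:13624045-13624134, plus strand: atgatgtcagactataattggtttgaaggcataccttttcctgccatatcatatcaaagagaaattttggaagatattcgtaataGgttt

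Sult2a3, chr7:14122904-14122993, minus strand: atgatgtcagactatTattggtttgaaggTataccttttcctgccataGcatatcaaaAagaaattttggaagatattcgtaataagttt

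Sult2a6, chr7:14254744-14254833, minus strand: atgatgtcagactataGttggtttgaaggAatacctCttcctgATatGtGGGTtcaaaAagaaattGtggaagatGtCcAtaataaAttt

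Sult2a8, chr7:14427830-14427919, minus strand: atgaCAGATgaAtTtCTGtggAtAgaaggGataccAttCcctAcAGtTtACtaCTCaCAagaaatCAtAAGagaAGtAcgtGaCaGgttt

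Sult2a2 did not differ from Sult2a1 in this stretch, Sult2a5 differed at 1 base, Sult2a3 at 4, Sult2a6 at 16 and Sult2a8 at 37. Over the aligned coding bases, Sult2a1 was 97.9% identical to Sult2a2, 93.7% to Sult2a3 and 69.5% to Sult2a8. The Sult2a2 coding sequence used has 585 bases against 858 for Sult2a1, so the first value covers only part of Sult2a1. Of all stretches of 100 bases in the Sult2a1 transcript, 11.4% occur unchanged in another Sult gene, against 34.6% for Sult2a2 and 0 for Sult2a3, Sult2a8, Sult3a1 and the 4 Sult1 members and Sult5a1. With stretches of 50 bases, the shares are 33.2% for Sult2a1, 62.1% for Sult2a2, 8.36% for Sult2a3 and 6.81% for Sult3a1. How the counting divided such reads is not stated, so the separate levels of Sult2a1 and Sult2a2 are uncertain, and those of Sult2a8 and the Sult1 genes are free of this limit.

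Sult2a1, a hydroxysteroid sulfotransferase, was abundant in Bmal1+/+ libraries and close to absent in the others. Its levels in Bmal1+/+ replicates 1 to 4 were 501, 60.6, 19.9 and 420 CPM, from 8341, 949, 297 and 7554 counts (mean 250 ± 245 CPM, SD, n = 4). The libraries labelled Bmal1-/- held 1 count in all, in replicate 2. The groups did not overlap, and the ratio of pooled count rates was 15605 in favour of Bmal1+/+, with a 95% exact interval of 2800 to 616413 that covers counting error only.

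Sult2a2, its near-identical neighbour, stood at 233, 86.3, 41.4 and 223 CPM in Bmal1+/+ replicates 1 to 4 (146 ± 96.5 CPM, SD, n = 4) and at 0 counts in every library labelled Bmal1-/-. Against a floor of 3 counts in each library, which corresponds to 0.167 to 0.213 CPM, the mean of Sult2a2 was at least 720-fold lower in the libraries labelled Bmal1-/-. Sult2a3, another hydroxysteroid family member, stood at 118, 5.24, 1.21 and 74.1 CPM in Bmal1+/+ replicates 1 to 4 (49.8 ± 56.7 CPM, SD, n = 4). It was also at 0 in all 4 libraries labelled Bmal1-/-, its mean at least 246-fold lower against the same floor. The Bmal1+/+ mean was carried by replicates 1 and 4, and replicate 3 held only 18 counts. Both genes thus had counts in every Bmal1+/+ library and none in any other library.

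The level of these 3 genes differed widely among the 4 Bmal1+/+ mice themselves. Replicates 1 and 4 were high and replicates 2 and 3 low for Sult2a1, Sult2a2 and Sult2a3, and the neighbours Sult2a5 and Sult2a6 had the same order of libraries, so that 5 Sult2a genes ranked the 4 mice alike. The highest library exceeded the lowest 98.1-fold for Sult2a3, 25.2-fold for Sult2a1 and 5.62-fold for Sult2a2. The ratio of Sult2a1 to Sult2a2 counts was 2.16 in replicate 1 and 1.88 in replicate 4, but 0.702 in replicate 2 and 0.481 in replicate 3, and the ratio of Sult2a1 to Sult2a3 counts ran from 4.23 in replicate 1 to 16.5 in replicate 3. The genes therefore moved in the same direction between mice but not by the same factor. The similarity of their sequences is a limit on reading them as 5 separate measurements.

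Sult2a8, known as a bile acid sulfotransferase, is the most divergent of the 4 Sult2a members and had another pattern. It stood at 374, 507, 450 and 574 CPM in Bmal1+/+ replicates 1 to 4 and at 731, 832, 921 and 438 CPM in libraries labelled Bmal1-/- (476 ± 84.9 against 730 ± 210 CPM, SD, n = 4 each). The mean was 1.53-fold higher in the libraries labelled Bmal1-/-, a log2 difference of 0.62 with a standard error of 0.23. Only replicate 4 of that group lay within the Bmal1+/+ range, and without it the other 3 libraries averaged 828 ± 95.3 CPM, 1.74-fold above Bmal1+/+.

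**Figure D1:**
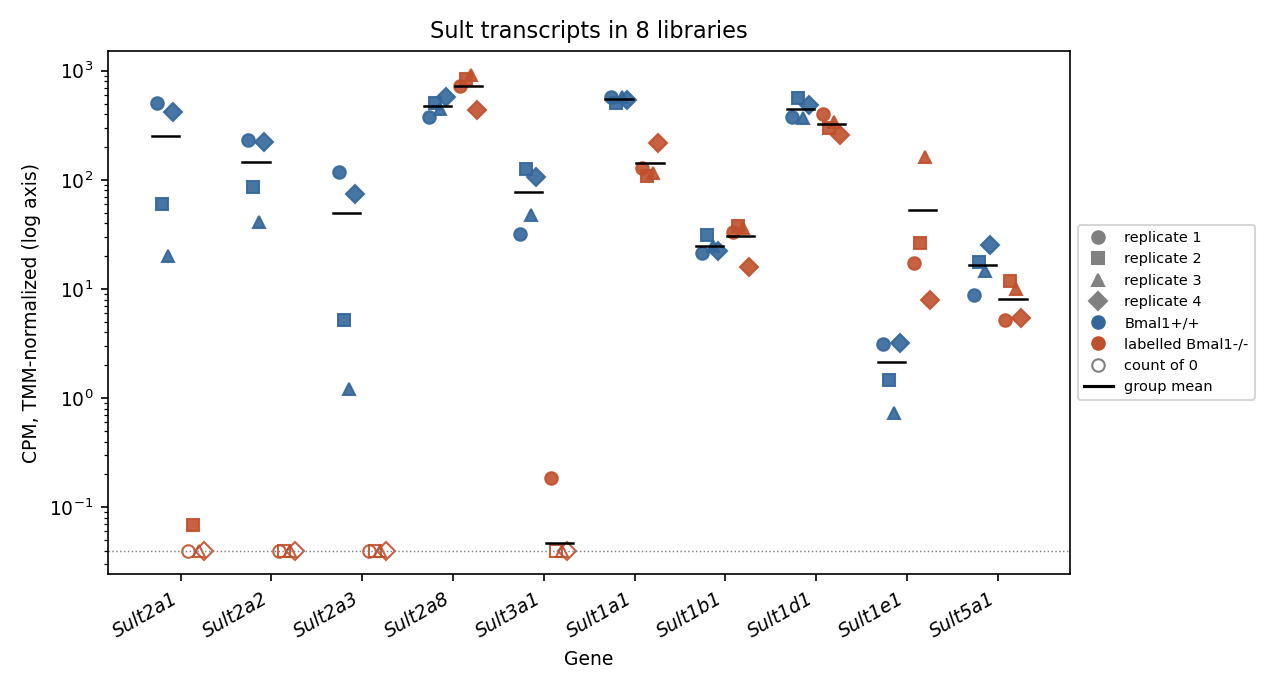
Normalized CPM on a log axis for each of the 10 Sult genes in each library. Marker shape gives the replicate, open markers on the dotted line are counts of 0, and black bars are group means. Sult2a1, Sult2a2, Sult2a3 and Sult3a1 had at most 3 counts in any library labelled Bmal1-/-, while Sult1e1 lay higher there in all 4 libraries.

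Since reads of near-identical genes can be split in different ways, the counts of all Sult2a genes in the table were also summed. The sum was 1338, 711, 555 and 1379 CPM in Bmal1+/+ replicates 1 to 4 and 734, 835, 925 and 450 CPM in the libraries labelled Bmal1-/-, so the groups overlapped. In the libraries labelled Bmal1-/- the sum consisted almost wholly of Sult2a8 and the remainder of Sult2a7. The spread between Bmal1+/+ mice in the sum followed Sult2a1, Sult2a2 and Sult2a3, because Sult2a8 varied only 1.53-fold among them.

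Sult3a1, an amine N-sulfotransferase at chr10:33857721-33879532 on the plus strand, was likewise near absent in 1 group. Bmal1+/+ replicates 1 to 4 had 32.1, 124, 47.5 and 105 CPM (77.4 ± 44.5 CPM, SD, n = 4), and the libraries labelled Bmal1-/- had 3 counts in all, each of them in replicate 1. The ratio of pooled count rates was 1544 (95% exact interval 528 to 7488, counting error only). Replicates 2 and 4 were the high Bmal1+/+ libraries here, so the order of mice was not that of Sult2a1, in which replicate 1 was the highest and for Sult3a1 the lowest. Its close relative Sult3a2, with 90.9% identical coding sequence, was highest in the same 2 replicates.

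Among the Sult1 genes, Sult1a1 showed a lower level in the libraries labelled Bmal1-/- with little spread between Bmal1+/+ mice. Sult1a1, the main phenol sulfotransferase, stood at 578, 501, 570 and 540 CPM in Bmal1+/+ replicates 1 to 4 and at 128, 109, 116 and 219 CPM in libraries labelled Bmal1-/- (547 ± 34.9 against 143 ± 51.1 CPM, SD, n = 4 each). The means differed 3.83-fold, a log2 difference of -1.94 with a standard error of 0.22. No library of 1 group came near the other, and the coefficient of variation was 6.37% in Bmal1+/+, the smallest of the 10 genes, against 35.8% in the other group. Without replicate 4, the highest of the libraries labelled Bmal1-/-, the means differed 4.66-fold. Sult1a1 (chr7:126672865-126676432, minus strand) overlaps Sgf29 on the other strand, and strand use in the counting is not stated. Sgf29 stood at means of 7.99 and 11.6 CPM and so drew far fewer counts than Sult1a1 in both groups.

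Sult1b1, Sult1d1 and Sult1e1 are neighbours on chromosome 5, at chr5:87513339-87538195, chr5:87554645-87569027 and chr5:87575969-87591594, all on the minus strand, and their levels did not run together. Sult1d1, a catecholamine sulfotransferase, stood at 373, 561, 366 and 481 CPM in Bmal1+/+ replicates 1 to 4 and at 403, 299, 342 and 256 CPM in libraries labelled Bmal1-/- (445 ± 93.1 against 325 ± 62.7 CPM, SD, n = 4 each). The groups overlapped, with a log2 difference of -0.45 and a standard error of 0.19. Sult1b1, which acts on thyroid hormones and small phenols, stood at 21.3, 31.5, 24.7 and 22.5 CPM in Bmal1+/+ and at 33.6, 37.7, 36.0 and 16.0 CPM in libraries labelled Bmal1-/-. Here the log2 difference was 0.30 with a standard error of 0.25, and replicate 4 alone fell below the Bmal1+/+ libraries while the other 3 lay above all of them. Without replicate 4 the libraries labelled Bmal1-/- averaged 35.8 ± 2.08 CPM (SD, n = 3), 1.43-fold above the Bmal1+/+ mean.

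Sult1e1, the estrogen sulfotransferase, was the single one of the 10 that lay higher in every library labelled Bmal1-/- than in every Bmal1+/+ library. It stood at 3.12, 1.47, 0.738 and 3.22 CPM in Bmal1+/+ replicates 1 to 4, from 52, 23, 11 and 58 counts, and at 17.1, 26.2, 163 and 7.85 CPM in libraries labelled Bmal1-/-, from 275, 379, 2288 and 116 counts. The group means were 2.14 ± 1.23 and 53.4 ± 73.1 CPM (SD, n = 4 each), 25.0-fold apart, with a log2 difference of 4.62 and a standard error of 0.98. Replicate 3 carried most of that mean, being 6.20-fold above the next library. Without it the mean was 17.1 ± 9.17 CPM (n = 3), 7.98-fold above Bmal1+/+, and the fitted log2 difference was 2.96. The lowest library labelled Bmal1-/- still lay 2.44-fold above the highest Bmal1+/+ library.

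Sult5a1, a family member whose substrates are little known, was low in all libraries. It stood at 8.83, 17.8, 14.8 and 25.3 CPM in Bmal1+/+ replicates 1 to 4 and at 5.17, 11.8, 10.1 and 5.42 CPM in libraries labelled Bmal1-/- (16.7 ± 6.87 against 8.11 ± 3.32 CPM, SD, n = 4 each). The groups overlapped, since Bmal1+/+ replicate 1 lay below 2 libraries of the other group, and the log2 difference was -1.05 with a standard error of 0.35. The gene, at chr8:123140192-123158315 on the minus strand, overlaps the annotated gene Gm20388 on the other strand. Its counts may hold reads of both if the counting ignored strand. Sult3a1 likewise overlaps Gm47935 on the other strand, and Sult2a1 and Sult2a2 overlap the pseudogenes Kat6b-ps2 and Zbed4-ps2 on their own strand.

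All 10 genes passed the filter on low counts, 4 of them only through the Bmal1+/+ libraries, and edgeR's quasi-likelihood test over 14353 genes called 6 of them lower, 1 higher and 3 neither at a Benjamini-Hochberg adjusted p below 0.05. In the same test 31.1% of all genes were called, 16.2% lower and 14.9% higher. The groups did not overlap for 6 of the 10 genes, against 33.4% of all genes tested. Because the genes were chosen with these differences known, the counts are given as a description alone. The call of Sult5a1 was lost under most of the alternatives tried, while Sult2a8 was called higher with DESeq2 and, with Sult1b1, in the fit lacking replicate 4 of the libraries labelled Bmal1-/-.

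Levels of different genes were compared in the deposited FPKM, which divides the fragments of a gene by its transcript length and the library total. In Bmal1+/+ libraries the order of mean FPKM was Sult2a1 (244 ± 240, SD, n = 4 here and for each FPKM mean that follows), Sult1a1 (233 ± 19.3), Sult2a2 (195 ± 130) and Sult1d1 (171 ± 32.3), followed by Sult2a8 (91.6 ± 14.8), Sult2a3 (48.6 ± 55.9) and Sult3a1 (48.0 ± 26.8). Sult1b1 (4.94 ± 0.836), Sult5a1 (2.87 ± 1.14) and Sult1e1 (1.70 ± 0.985) were an order of magnitude lower. Neighbours in this order overlapped in their ranges except Sult1d1 against Sult2a8 and Sult3a1 against Sult1b1.

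In the libraries labelled Bmal1-/- the order of mean FPKM was Sult2a8 (144 ± 42.5), Sult1d1 (128 ± 26.5), Sult1a1 (61.5 ± 20.6), Sult1e1 (43.3 ± 58.9), Sult1b1 (6.24 ± 2.11) and Sult5a1 (1.43 ± 0.600), with the other 4 at or near 0. Among these 6, ranges of neighbours overlapped for Sult2a8 with Sult1d1, for Sult1a1 with Sult1e1 and for Sult1e1 with Sult1b1. Of the summed FPKM of the 10 genes, Sult1a1 made up 25.6% on average in Bmal1+/+ and 17.5% in libraries labelled Bmal1-/-, Sult2a8 10.1% and 37.1%, Sult1d1 18.8% and 33.9%, Sult2a1 18.7% and 0.00476%, and Sult1e1 0.153% and 9.47%. The last share was 3.93% without replicate 3 of the libraries labelled Bmal1-/-. The sum itself ranged from 594 to 1429 FPKM in Bmal1+/+ and from 284 to 503 FPKM in the other group. On the CPM scale the sum of the 10 genes ranged from 1536 to 2469 and from 942 to 1588, so the groups were apart in FPKM and overlapped in CPM.

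**Figure D2:**
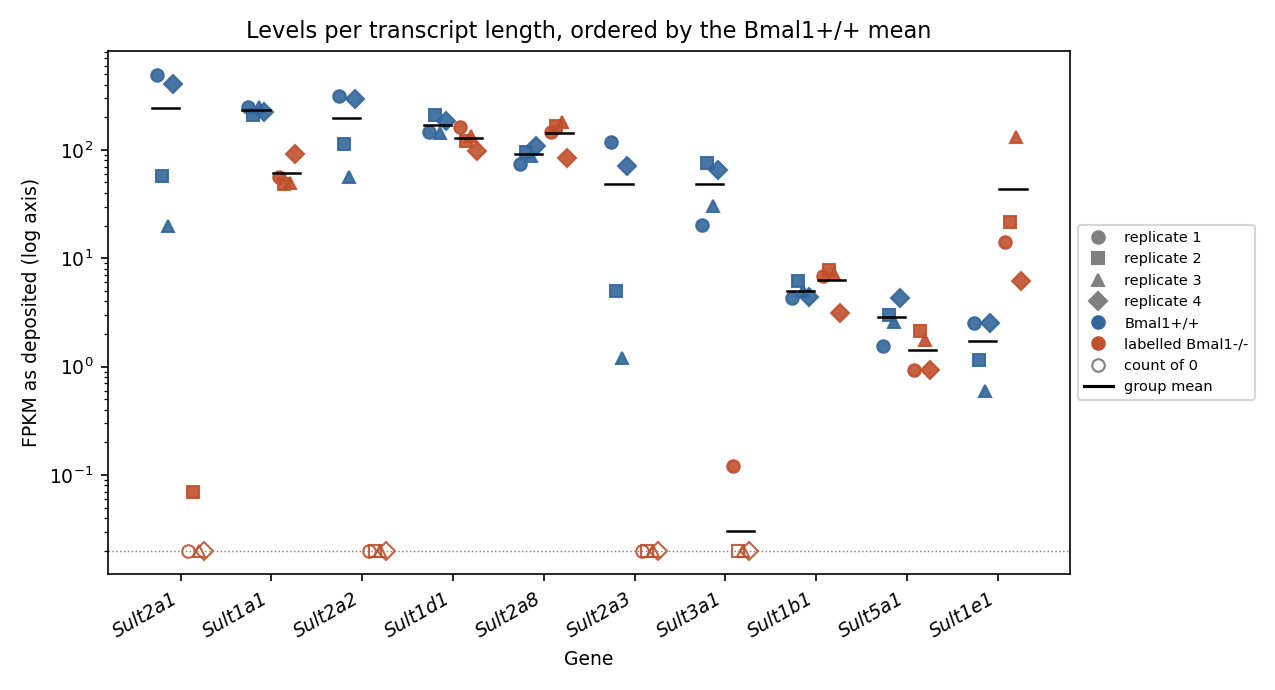
Deposited FPKM, a level per transcript length, on a log axis for the 10 Sult genes, ordered by the Bmal1+/+ mean. Marker shape gives the replicate, open markers on the dotted line are counts of 0, and black bars are group means. Sult1e1 had the lowest mean in Bmal1+/+ (1.70 FPKM) and the fourth highest in libraries labelled Bmal1-/- (43.3 FPKM).

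Libraries differed within a group as well. Over all genes, replicate 4 of the libraries labelled Bmal1-/- was farthest from the others of its group, with a chi-square per degree of freedom of 144 to 167 against each of them, where the pairs among the other 3 gave 20 to 44.6. In that group Sult2a8, Sult1b1, Sult1d1 and Sult1e1 were lowest and Sult1a1 highest in replicate 4, and Sult5a1 was not at either end. Relative to the mean of the other 3, replicate 4 held 0.529 times as much Sult2a8, 0.447 times as much Sult1b1 and 1.86 times as much Sult1a1. The acute-phase transcripts Saa1 and Hp, looked up after the data were seen, stood there at 7737 and 15552 CPM, against 10.9 to 17.6 and 1845 to 3877 CPM in the other 3. The part of that difference in the Sult levels was not tested.

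**Figure D3:**
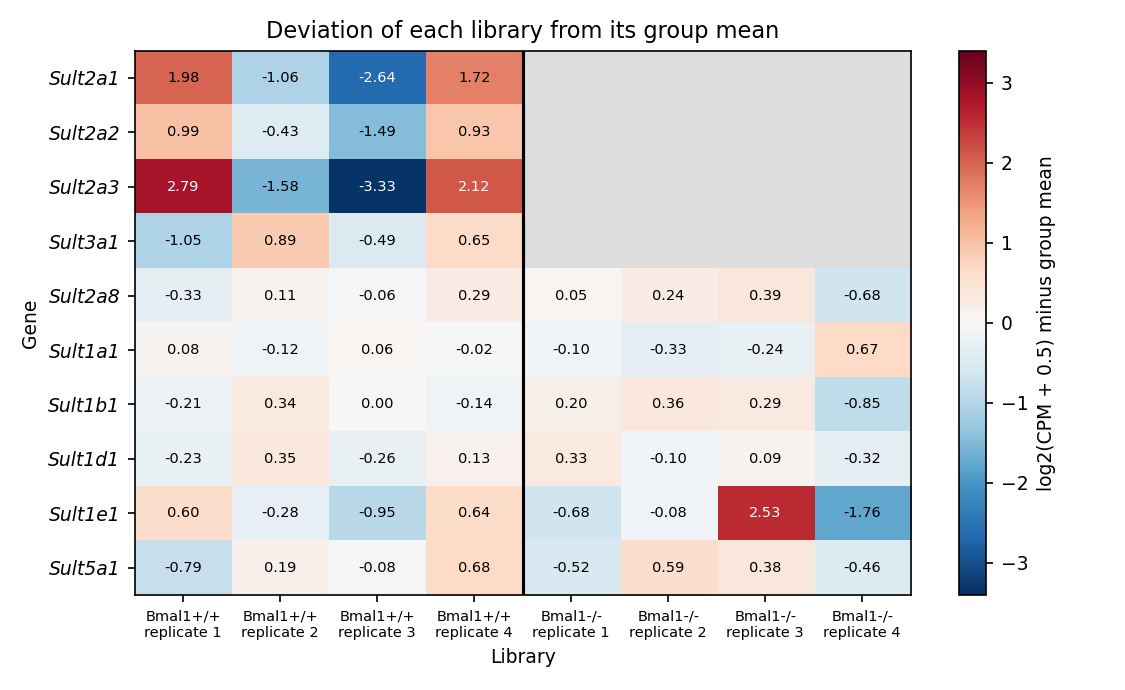
Difference of each library's log2(CPM + 0.5) from the mean of its group, by gene and library. Red is above and blue below the group mean, and grey marks genes at or near 0 counts in libraries labelled Bmal1-/-. Sult2a1, Sult2a2 and Sult2a3 are high in Bmal1+/+ replicates 1 and 4 and low in replicates 2 and 3, and Sult1e1 is 2.53 above its group mean in replicate 3 of the libraries labelled Bmal1-/-.

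For the 6 genes with at least 10 counts in every library, the genes most like them were sought by Pearson's r of these deviations over the 8 libraries, among 13439 genes averaging 1 CPM or more. The closest were Uqcrc1 (r = 0.989) and Sgf29 (0.979) for Sult2a8, Cd5l (0.995) and Slc3a1 (0.99) for Sult1a1, and Osbpl1a (0.995) and Btbd2 (0.982) for Sult1b1. For Sult1d1 they were Arl4a (0.966) and Rad17 (0.960), for Sult1e1 Dhrs3 (0.983) and Igbp1 (0.982), and for Sult5a1 the pseudogenes Rps26-ps1 (0.980) and Rpl17-ps10 (0.974). These are the highest of many values over 8 libraries that share their depth and replicate 4 of the libraries labelled Bmal1-/-, and they are given as a description.

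Of the other 17 Sult genes and pseudogenes in the table, 5 had enough counts to be tested. Of these, Sult2a5, Sult2a6 and Sult3a2 passed the filter through the Bmal1+/+ libraries alone, where a difference between groups was a condition of being tested, so their values are given without a p-value. Sult2a5, with 94.9% coding identity to Sult2a1, stood at 81.8, 31.6, 13.9 and 60.8 CPM in Bmal1+/+ replicates 1 to 4 and at 2 counts in all in the other group (ratio of count rates 1437, 95% exact interval 397 to 11872). Sult2a6 was at 2.75 to 11.8 CPM in Bmal1+/+ and at 0 in the other group, its mean at least 35.1-fold lower against the floor. Sult3a2 was at 1.34 to 8.69 CPM against 0, its mean at least 23.7-fold lower against the floor.

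The other 2 of these genes had counts in all libraries, and both fell in the libraries labelled Bmal1-/-. Sult2a7, the neighbour of Sult2a8, was at 15.4, 14.95, 25.9 and 15.6 CPM in Bmal1+/+ and at 3.05, 3.80, 3.69 and 11.4 CPM in the libraries labelled Bmal1-/- (log2 fold change -1.71, standard error 0.40, adjusted p = 0.010 by edgeR). Sult2a7 and Sult2a8 lie side by side and their means differed in opposite directions. Sult1c2, a phenol sulfotransferase relative, was at 9.90 ± 1.74 CPM against 2.24 ± 1.12 CPM (log2 fold change -2.14, standard error 0.34, adjusted p = 0.0013 by edgeR). Of the 12 Sult genes not tested, Sult2a4 had 28, 0, 1 and 9 counts and the pseudogene Sult2a-ps1 13, 7, 6 and 26 counts in Bmal1+/+ replicates 1 to 4, and both had none in the other group. A count of 0 was recorded in every library for 6 of the 12.

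The promoters of the Sult2a genes are shown because the near-absent and the retained members lie in 1 cluster. They are the 120 bases before each start in RefSeq (GRCm38.p6), read 5′ to 3′, and 8 of the 10 genes matched an entry, Sult2a1 and Sult2a2 being without one. Capitals mark a run of 15 bases that the first 4 share.

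Sult2a3, chr7:14123049-14123168, minus strand: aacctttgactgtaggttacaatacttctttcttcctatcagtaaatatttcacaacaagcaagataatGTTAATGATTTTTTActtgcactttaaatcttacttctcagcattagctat

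Sult2a5, chr7:13623847-13623966, plus strand: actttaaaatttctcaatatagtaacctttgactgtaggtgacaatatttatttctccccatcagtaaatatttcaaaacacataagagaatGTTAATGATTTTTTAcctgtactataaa

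Sult2a6, chr7:14254871-14254990, minus strand: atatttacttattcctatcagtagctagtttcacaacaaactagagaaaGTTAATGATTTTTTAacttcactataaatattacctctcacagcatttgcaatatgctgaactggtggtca

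Sult2a4, chr7:13989589-13989708, minus strand: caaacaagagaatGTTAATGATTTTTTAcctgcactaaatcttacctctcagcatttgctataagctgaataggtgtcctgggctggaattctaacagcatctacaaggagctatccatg

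Sult2a8, chr7:14446588-14446707, minus strand: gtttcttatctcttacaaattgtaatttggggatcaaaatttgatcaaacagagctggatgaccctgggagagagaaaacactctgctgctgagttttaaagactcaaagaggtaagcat

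The shared run begins 51 bases before the start of Sult2a3, 28 before Sult2a5, 71 before Sult2a6 and 107 before Sult2a4. It occurs in 4 of 32851 RefSeq promoters of 300 bases (0.0122%), which are these 4, and not in that of Sult2a8. The promoter of Sult2a3 was 87.4% identical to that of Sult2a5 and 81.4% to that of Sult2a6, against 65% to that of Sult2a8, so a run shared by the first 4 belongs to sequences that are alike throughout.

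Named motifs were searched on both strands in the 300 bases around each start. The E-box CACGTG, the letters that Bmal1 with its partner Clock is known to bind, was in none of the promoters of the 8 members and in 7.15% of all promoters. The STAT5 letters TTCNNNGAA were in the promoter of Sult3a1 alone among them, beginning 109 bases before the start, and in 8.30% of all promoters. The HNF1 motif, searched in its full-length form with no mismatch allowed, was in none of the 8 and in 0.0609% of all. Partial matches were not counted, and the shared run shown above begins with part of this motif. The Sult3a1 stretch follows with its STAT5 letters in capitals.

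Sult3a1, chr10:33857602-33857721, plus strand: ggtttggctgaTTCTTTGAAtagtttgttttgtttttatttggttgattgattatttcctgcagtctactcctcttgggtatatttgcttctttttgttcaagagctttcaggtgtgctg

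Genes that supply PAPS and sulfate were examined to see how the donor side of the reaction compared. Of 14 tested genes on this list, 4 fell and 2 rose in the libraries labelled Bmal1-/- and 8 passed in neither direction, 42.9% called against 31.1% of all genes, with a median log2 fold change of -0.0732 against 0.0224. Papss2, the PAPS synthase that predominates in liver, stood at 373 to 477 CPM in Bmal1+/+ and 77.2 to 131 CPM in the libraries labelled Bmal1-/- (log2 fold change -2.05, standard error 0.20, adjusted p = 8.52e-05 by edgeR). Papss1, the other synthase, drew far fewer counts, at means of 4.78 and 6.16 CPM, and did not pass (log2 fold change 0.36, adjusted p = 0.21 by edgeR). The PAPS synthase with nearly all of the synthase counts was thus the one that fell.

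Slc26a1, a sulfate transporter of the hepatocyte membrane, fell from a mean of 189 to 101 CPM (log2 fold change -0.91, adjusted p = 4.4e-04 by edgeR). Sqor, the mitochondrial sulfide oxidase, fell from 211 to 127 CPM (log2 fold change -0.73, adjusted p = 0.0014 by edgeR). Impad1, a Golgi phosphatase that breaks down the product left from PAPS, fell from 74.4 to 56.7 CPM (log2 fold change -0.39, adjusted p = 0.0088 by edgeR). The sulfur-oxidizing enzymes went both ways.

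Ethe1, the persulfide dioxygenase, rose from 18.9 to 61.5 CPM (log2 fold change 1.70, adjusted p = 5.9e-04 by edgeR), and Cdo1, the cysteine dioxygenase, rose from 819 to 1277 CPM (log2 fold change 0.64, adjusted p = 0.0063 by edgeR). Bpnt1, Mpst, Slc26a2, Slc35b2, Slc35b3, Suox and Tst, together with Papss1, did not pass, with log2 fold changes between -0.33 and 0.44. The groups did not overlap for the 6 genes that passed, against 33.4% of all genes tested. Since these were picked as called genes, this adds nothing to their calls.

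**Figure D4:**
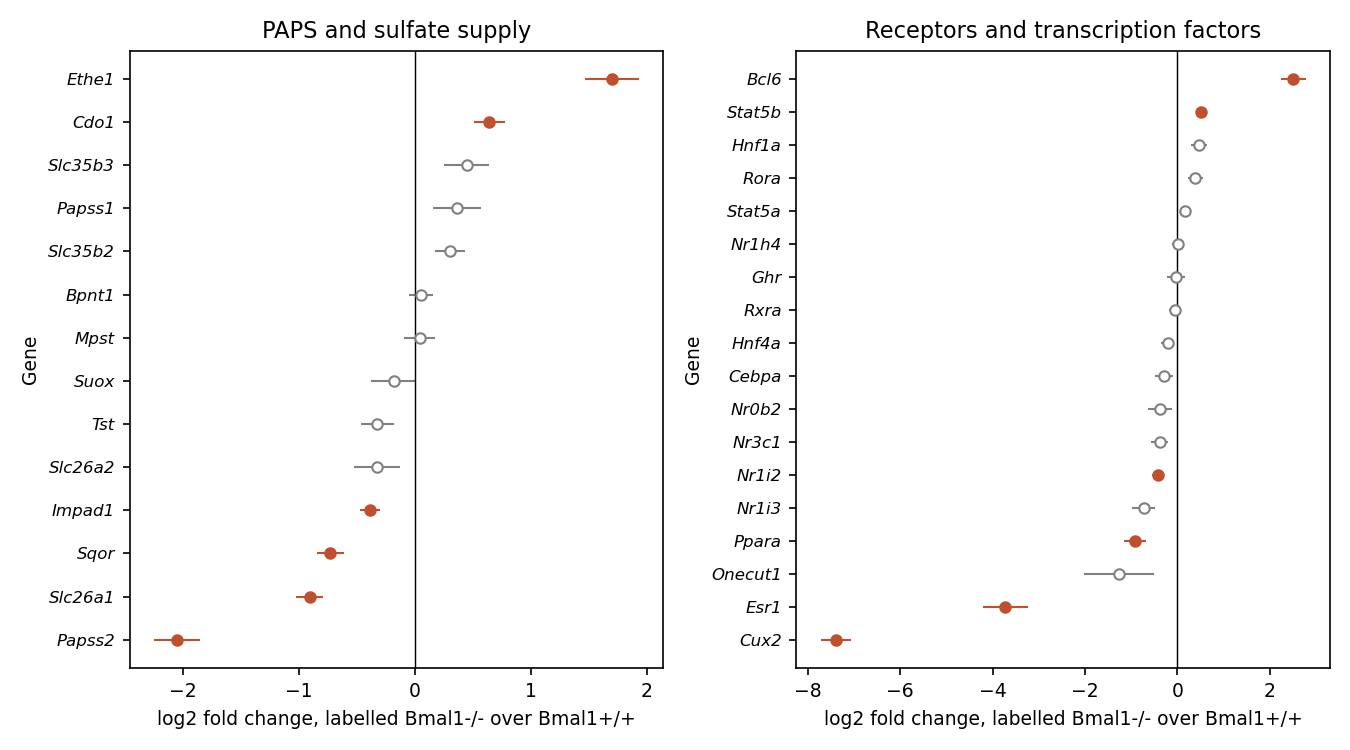
Log2 fold change of the libraries labelled Bmal1-/- over Bmal1+/+ for tested genes of PAPS and sulfate supply (left) and for the receptors and transcription factors reported here (right), with bars of 1 standard error and different scales. Filled markers passed an adjusted p of 0.05 in edgeR. Papss2 lies lowest on the left at -2.05, and Cux2 lowest on the right at -7.39. Cux2 passed the filter on low counts through the Bmal1+/+ libraries alone.

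Sulfatases, which undo sulfation, and the Golgi sulfotransferases, which act on sugars and proteins and not on small molecules, were counted for comparison. Of 12 tested sulfatases and their activators, 4 fell and 4 rose (66.7% called against 31.1% of all genes, median log2 fold change 0.345 against 0.0224), and 5 in all were called without Bmal1+/+ replicate 4. Arsg rose from a mean of 6.62 to 22.6 CPM (log2 fold change 1.77, adjusted p = 5.17e-05 by edgeR). On the log2 scale Galns rose by 0.97 (adjusted p = 0.019 by edgeR) and Ids fell by 0.63 (adjusted p = 0.0019 by edgeR). Sulf1 fell by 1.43, but at 0.271 to 0.830 CPM in the libraries labelled Bmal1-/- it passed the filter through the Bmal1+/+ libraries alone. It is counted among the 4 that fell and given without a p-value. Without Bmal1+/+ replicate 4 Galns did not pass (adjusted p = 0.0555 by edgeR), nor did Sulf1. Of 17 tested Golgi sulfotransferases, 4 fell and 1 rose (29.4% called, below the 31.1% of all genes, median log2 fold change -0.142), and 3 in all were called without Bmal1+/+ replicate 2. The gene that rose was Tpst2, a protein tyrosine sulfotransferase, from 20.6 to 61.5 CPM (log2 fold change 1.58, adjusted p = 1.9e-04 by edgeR). Chst15, Hs3st3a1 and Hs3st3b1 fell by 0.56, 0.72 and 0.44 on the log2 scale, of which Chst15 and Hs3st3a1 did not pass without Bmal1+/+ replicate 2 (adjusted p = 0.0597 and 0.124 by edgeR), and Hs3st3a1 was also lost without any of 5 other single libraries. Ust, named here after its values were seen, fell by 1.66 on the log2 scale and is counted among the 4 that fell. At 0.415 to 0.542 CPM in the libraries labelled Bmal1-/-, it passed the filter through the Bmal1+/+ libraries alone, so no p-value is given.

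Receptors and transcription factors known to act on Sult genes or on sex-dependent liver expression were counted last. Of 20 tested, 5 fell and 3 rose (40% called against 31.1% of all genes, median log2 fold change -0.248). Cux2, a repressor known to be expressed mainly in female liver, fell from a mean of 71.8 ± 11.1 to 0.409 ± 0.316 CPM (SD, n = 4 each, log2 fold change -7.39, standard error 0.33). At 0.203 to 0.873 CPM in the libraries labelled Bmal1-/-, Cux2 passed the filter on low counts through the Bmal1+/+ libraries alone. It is counted among the 5 that fell, but its values are given without a p-value. Bcl6, a repressor known to be higher in male liver, rose from 15.4 ± 4.85 to 87.9 ± 27.9 CPM (log2 fold change 2.51, adjusted p = 1.4e-04 by edgeR). Stat5b, the growth hormone-activated factor, rose by 0.52 (adjusted p = 0.0028 by edgeR). For these 3 genes the groups did not overlap, which held for 33.4% of all genes tested. The part of sex in their differences was not tested.

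Esr1, the estrogen receptor, fell from 97.4 ± 8.85 to 7.38 ± 6.75 CPM (log2 fold change -3.72, adjusted p = 5.2e-04 by edgeR), in the libraries in which the estrogen sulfotransferase Sult1e1 was higher. The xenobiotic receptor Nr1i2 fell by 0.42 on the log2 scale (adjusted p = 0.033 by edgeR), a call lost under 8 of 16 alternatives, among them leaving out any 1 of 6 libraries. The related Nr1i3, known to induce Sult genes, had a log2 fold change of -0.73 that did not pass (adjusted p = 0.054 by edgeR), nor did that of Rora, 0.39 (adjusted p = 0.10 by edgeR). Without replicate 3 of the libraries labelled Bmal1-/- both passed, at -1.05 and 0.50 (adjusted p = 0.00475 and 0.0344 by edgeR).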

How the data were processed

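RNA-seq counts of 4 Bmal1+/+ libraries and 4 libraries labelled Bmal1-/- were analysed, grouped by the genotype and replicate number in the labels, and the 10 genes and all lists were chosen with earlier results of these data known. The authors aligned reads to GRCm38 with HISAT2, counted them with StringTie and deposited raw counts per gene and FPKM, while the submitters' processing notes also list CASAVA 1.8 and TopHat2 2.0.6. Whether strand was used is not given in the sources used here. The deposited FPKM equals count over library total and a fixed gene length within 1% for 100% of 9653 genes, so it holds no TMM factor.

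Symbols came from GENCODE annotation of GRCm38 and matched 99.4% of 55487 gene IDs. Genes were filtered with filterByExpr, scaled by TMM and tested with edgeR 4.0.16 in R 4.3.3 (quasi-likelihood, prior count 0.125, 14353 genes, Benjamini-Hochberg adjusted p below 0.05). The p-values measure the spread between libraries, each taken as 1 mouse. Standard errors were derived as the absolute log2 fold change over the square root of the quasi-likelihood F. A count of 3 in a library was the floor. Named outside the 10 were every tested gene of the Sult and PAPS lists and, in each other list, the 4 genes of largest change among called genes that averaged 1 CPM or more without overlap between groups, plus Stat5b, Cux2, Bcl6, Nr1i3, Nr1i2 and Rora. Results of some receptors and factors on the list, among them 1 chosen by this rule, are not reported here. Sequences came from GRCm38 and RefSeq, aligned with mafft 7.526. Scripts were tested on simulated data. DESeq2 1.42.0, limma-voom (limma 3.58.1), other scalings, filters, a replicate block and leaving out each library were the alternatives.

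Same-numbered libraries of the 2 groups had correlations of deviations of -0.1, 0.0632, 0.0338 and 0.0346, so the numbers do not pair them.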

Additional observations from a re-analysis of the deposited data

Results flagged for a closer look

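Among 16 combinations of gene and group with enough counts, 1 library stood apart from the other 3 of its group by Dixon's test: Sult1e1 at 162.53 CPM in replicate 3 of the libraries labelled Bmal1-/-, where the others lay between 7.85 and 26.2 CPM. The gap was 0.881 of the range of the group. About 1 in 20 such groups would stand apart by chance. The group difference in Sult1e1 was in the same direction without this library (log2 difference 2.96).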

How the results depend on the processing

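With at least 10 counts in every library, 2 of the 10 genes and 2 of the other Sult genes were called lower in place of 6 and 5, since genes at 0 in a group are then not tested. With DESeq2, 2 of the 10 genes were called higher in place of 1, and when a library was left out 1 to 3 were, 3 without replicate 4 of the libraries labelled Bmal1-/-. Leaving out a library gave 5 to 10 called sulfatases (main 8, 5 without Bmal1+/+ replicate 4) and 3 to 7 called Golgi sulfotransferases (main 5, 3 without Bmal1+/+ replicate 2), and the fitted log2 difference of Sult1e1 was 2.96 without replicate 3 of the libraries labelled Bmal1-/-. The log2 fold change of Mpst, 0.038 and not called, ran from -0.037 to 0.15 when a library was left out, with -0.0033 without Bmal1+/+ replicate 3 and -0.037 and -0.013 without replicates 2 and 3 of the libraries labelled Bmal1-/-. The cause of these shifts was not tested. The replicate block called 2064 genes lower and 1809 higher, against 2322 and 2135, and left the counts of the 10 genes at 6 and 1. Calls of Nr1i2, Hs3st3a1, Sulf1, Galns and Chst15 were lost under some alternatives, and Nr1i3 and Rora were called under others. Sult2a3 was not called with limma-voom. Levels below 0.167 to 0.213 CPM rest on fewer than 3 counts in a library.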
